A study of Homo sapiens with 18 samples.

Results

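The response of Cal51 cells to ezetimibe alone was described from all 472 genes of the authors' deposited table for ezetimibe against DMSO, of 3647 different genes in the 3 deposited tables of the series. The authors listed a gene where its absolute log2 fold change passed 1 and its adjusted p was under 0.05, so every gene here had already been picked on the same 6 libraries. The p-values below therefore describe how far listed genes stood from the spread between libraries and are not independent evidence of a change. Cal51 is an established human breast cancer cell line. One group of cells was treated with ezetimibe, which blocks the sterol transporter NPC1L1 and is used to lower cholesterol uptake in the gut, and its control received the solvent DMSO, each for 8 h. Each group had 3 RNA sequencing libraries. The labels give no dose and do not say that the libraries came from separate cultures, so the spread between them may be technical. All results come from 1 cell line.

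Cells with too many unfolded proteins in the endoplasmic reticulum (ER) raise chaperones and degradation factors through the sensors IRE1, PERK and ATF6, and PERK also raises the transcription factor ATF4, which drives amino acid synthesis, transport and stress genes. Cells short of sterol in the ER membrane release the factor SREBP2, which raises the enzymes and receptors that supply cholesterol. Genes needed for mitosis are held low outside the late cell cycle through a short promoter element, the cell cycle genes homology region, often found beside CCAAT boxes.

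Most listed genes were higher with ezetimibe. The authors' deposited table held 367 higher and 105 lower genes, which is 2.7% and 0.772% of the 13596 genes inferred to stand behind the authors' adjusted p-values, and 3.47% in either direction. Limma called 471 of the 472 genes at an adjusted p under 0.05 (99.8% of the table), 366 higher (77.5%) and 105 lower (22.2%). In 464 genes (98.3%) no ezetimibe library overlapped a DMSO library, a share fixed largely by how the genes were picked. The higher genes had a median log2 difference of 1.33 and reached 5.92, while the lower genes had a median of -1.19 and went no lower than -2.35. Past an absolute log2 difference of 2 there were 54 higher genes and 5 lower ones. Of the 472 genes 398 were protein-coding and 296 had a mean of at least 50 normalised reads over the 6 libraries. The normalised read count is the number of reads of a gene multiplied by one factor per library. The listed genes took 312565 to 339263 reads in an ezetimibe library and 185127 to 214646 in a DMSO library. Reads outside the table are not known, and in bulk RNA fewer cells of a kind and less RNA per cell cannot be told apart. The ezetimibe libraries lay closer together than the DMSO libraries, with a median SD of log2 values of 0.0886 among ezetimibe libraries, against 0.183 among DMSO libraries, over the 296 better expressed genes.

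**Figure D1:**
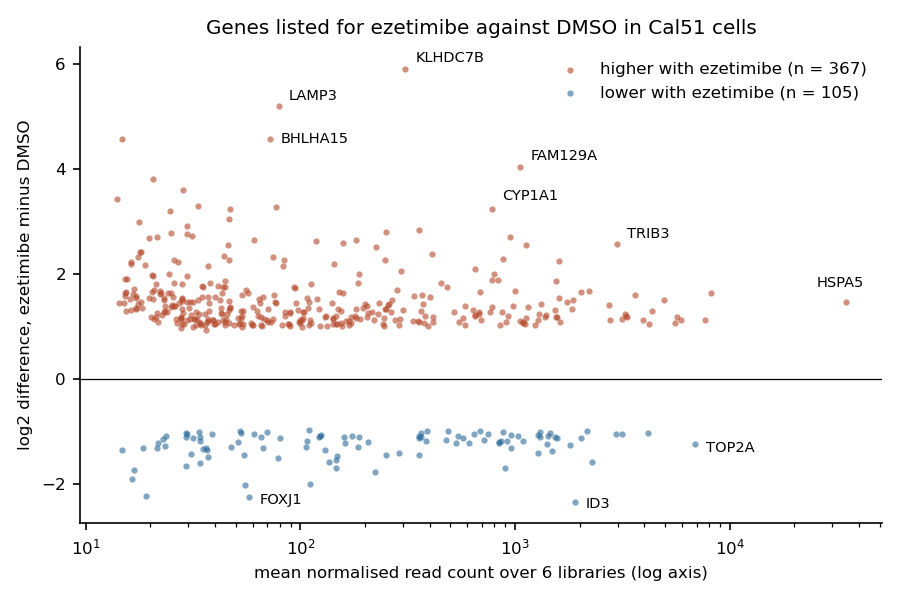
Each point is 1 of the 472 listed genes, with the mean normalised read count over 6 libraries on a log axis and the log2 difference, ezetimibe minus DMSO, on the vertical axis. The empty band around 0 comes from the authors' listing rule, and the differences of the 367 higher genes spread to 5.92 while those of the 105 lower genes end at -2.35.

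Some chaperones and folding enzymes of the ER were higher with ezetimibe, as were some genes of the machinery that removes misfolded proteins. Across 5 lists of ER genes 19 of 100 members were listed, all higher, beside 2.7% of all genes behind the listing, with a median log2 difference of 1.20 beside 1.33 for all higher genes. These lists and those below were written with earlier results of these data known. Their counts beside the share of all genes are therefore a description and not a test. That share covers genes of every expression level and was not matched to the lists. By role these were 7 of 20 chaperones and folding enzymes, 5 of 20 genes of ER-associated degradation, 3 of 13 stress sensors and factors, 3 of 33 genes of translocation and transport to the Golgi, and 1 of 14 genes of sugar nucleotides and glycosylation. HSPA5, the main chaperone of the ER lumen (ENSG00000044574, chromosome 9, 125234853 to 125241330), had 50774, 50564 and 51116 normalised reads in the ezetimibe libraries, against 18479, 17968 and 18802 in the DMSO libraries. The groups stood far apart, and per kilobase of gene length HSPA5 was the highest of the 472 genes in both, at 13004 with ezetimibe and 4712 with DMSO. HYOU1, a large chaperone that exchanges nucleotide on HSPA5 (chromosome 11, 119044189 to 119057202), had 12216, 12414 and 12465 with ezetimibe and 4089.7, 4189 and 3683 with DMSO. Its libraries did not overlap, and its rise of 3.10-fold (log2 1.63 ± 0.06, adjusted p = 2.68e-10) stood beside 2.76-fold for HSPA5.

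Of the other 5 listed folding genes all but DNAJB9 lay closer to the listing threshold. SDF2L1, a partner of the HSPA5 system, rose 2.09-fold (1457, 1406 and 1534 with ezetimibe, 708, 846 and 548 with DMSO). MANF, a secreted ER stress protein, rose 2.09-fold and FKBP14, a prolyl isomerase that acts on collagen, 2.28-fold. DNAJB9, an HSPA5 co-chaperone, had the steepest rise of the list at 4.27-fold. In the degradation branch HERPUD1, which organises the membrane complex, had 4679, 4638 and 4541 with ezetimibe, against 1986, 2003 and 2116 with DMSO. SEL1L, the adaptor of the ubiquitin ligase SYVN1, rose 2.33-fold and SYVN1 itself 2.36-fold. The mannosidase-like protein EDEM2 and the lectin ERLEC1, which read the sugar chains of misfolded glycoproteins, rose 2.03-fold and 2.02-fold, close to the listing threshold.

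Of the sensors, EIF2AK3, the gene of PERK, had 499, 546 and 538 with ezetimibe and 247, 253 and 282 with DMSO (log2 1.01 ± 0.11). XBP1, the transcription factor made active by IRE1 (chromosome 22, 28794555 to 28800597), had 3971, 3796 and 3637 with ezetimibe and 1687, 1768 and 1798 with DMSO, a rise of 2.17-fold. These gene counts do not separate the spliced form of XBP1 from the unspliced one. BHLHA15, a factor of secretory cells that XBP1 is known to induce, stood at 140.2, 156 and 122 with ezetimibe and at 5.88, 8.29 and 2.14 with DMSO, so its rise of 25.6-fold starts from a few reads. With a pseudocount of 5 in place of 1 its log2 difference was 3.83 and not 4.58. Among transport genes SEC24D, which picks cargo for vesicles that leave the ER, rose 3.21-fold (3287, 3382 and 3425 with ezetimibe, 1021, 992 and 1136 with DMSO). SEC11C of the signal peptidase and SSR3 of the translocon-associated complex rose 2.42-fold and 2.06-fold. GMPPA, which regulates the making of GDP-mannose, rose 2.41-fold.

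Promoters of these genes are shown because the ER stress element, the letters CCAAT, 9 bases of any kind and CCACG, is the known docking site of ATF6 with the factor NF-Y. Promoter windows of 300 bases, 250 before the start site and 50 from it on, were taken from RefSeq on GRCh38.p14 for 336 of the 472 genes, and both strands were searched. The element was in 3 of 17 promoters of listed ER genes, in 4 of 262 promoters of all higher genes (1.53%), in 0 of 74 promoters of lower genes and in 0.0806% of 27305 promoters. Its second form, ATTGG, 1 base and CCACG, was in another 3 of the 17 and in 0.0549% of all promoters. Together 6 of 17 (35.3%) held one of them, beside 2.67% of all higher genes. The whole HSPA5 window (chr9:125241294-125241593, minus strand) is printed first, with the element in capitals starting 66 bases before the start site. Then come 50 bases around the element in XBP1 (chr22:28800588-28800637, minus strand), in ERO1B, an oxidase of the ER (chr1:236282159-236282208, minus strand), and in FICD, an enzyme that modifies HSPA5 (chr12:108515107-108515156, plus strand), and around the second form in HERPUD1 (chr16:56932005-56932054, plus strand), HYOU1 (chr11:119057255-119057304, minus strand) and SDF2L1 (chr22:21642094-21642143, plus strand). Sequences run 5′ to 3′ on the strand of the gene, and in ERO1B, HYOU1 and SDF2L1 the match lies on the other strand, so that the capitals are its reverse complement.
HSPA5: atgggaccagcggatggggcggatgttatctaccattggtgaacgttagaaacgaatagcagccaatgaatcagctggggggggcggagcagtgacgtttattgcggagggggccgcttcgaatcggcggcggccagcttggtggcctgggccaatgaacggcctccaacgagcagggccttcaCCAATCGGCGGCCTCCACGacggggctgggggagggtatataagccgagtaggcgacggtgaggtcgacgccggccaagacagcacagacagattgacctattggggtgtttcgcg
XBP1: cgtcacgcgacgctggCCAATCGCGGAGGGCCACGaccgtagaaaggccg
ERO1B: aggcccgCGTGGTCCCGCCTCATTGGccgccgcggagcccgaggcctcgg
FICD: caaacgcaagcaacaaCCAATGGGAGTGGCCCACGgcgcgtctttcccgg
HERPUD1: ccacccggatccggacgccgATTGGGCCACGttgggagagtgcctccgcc
HYOU1: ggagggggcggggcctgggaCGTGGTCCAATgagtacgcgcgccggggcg
SDF2L1: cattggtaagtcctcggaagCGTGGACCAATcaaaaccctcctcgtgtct
ERO1B rose 2.11-fold and FICD 2.70-fold. A match describes these letters only, and it is not a measured binding site. Here and for the motifs below, promoters of list members that were not listed were not counted apart. Whether a share is particular to the listed members was therefore not tested.

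Genes linked to ATF4 were higher with ezetimibe in all but 1 of the cases listed. Over 6 lists 26 of 99 members were listed, 25 higher and 1 lower, beside 3.47% of all genes behind the listing in either direction, with a median log2 difference of 1.49. Stress regulators made up 10 of them, of 21 on their list. DDIT3, the C/EBP-related factor CHOP (chromosome 12, 57516588 to 57521737), had 379, 307 and 336 with ezetimibe, against 109, 123 and 141 with DMSO (log2 1.45 ± 0.14). ATF3, another stress-induced factor, rose 2.79-fold and NUPR1, a small chromatin protein, 6.52-fold. NUPR1 varied in its DMSO libraries (73.5, 93.0 and 34.2) but stayed below all ezetimibe libraries (504, 404 and 399). DDIT4, an inhibitor of the growth kinase mTORC1, rose 3.16-fold (1495, 1542 and 1498 with ezetimibe, 497, 565 and 372 with DMSO). SESN2, which signals leucine shortage to mTORC1, rose 2.49-fold. CHAC1, which breaks down glutathione, had 860.0, 888 and 791 with ezetimibe, against 307, 378 and 283 with DMSO (log2 1.40 ± 0.12).

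The amino acid genes covered synthesis, uptake and charging, and in each list most members were not listed. ASNS, asparagine synthetase (ENSG00000070669, chromosome 7, 97852118 to 97872542), had 157, 119 and 132 with ezetimibe and 29.4, 24.9 and 35.3 with DMSO. It rose 4.55-fold (log2 2.15 ± 0.20, adjusted p = 7.69e-07) but stayed low, at 30.5 normalised reads per kilobase with ezetimibe, beside 853 for PHGDH. PHGDH, the first enzyme of serine synthesis, rose 2.26-fold, and PYCR1, which makes proline in mitochondria, 2.33-fold. ASNS, PHGDH and PYCR1 were the 3 listed of 15 synthesis genes. Of 10 folate one-carbon enzymes only ALDH1L2 was listed, at 6.55-fold. Of 20 cytosolic tRNA synthetases 3 were listed. WARS, which charges tryptophan tRNA, rose 2.84-fold (7305, 7445 and 7108 with ezetimibe, 2609, 2477 and 2609 with DMSO). The alanine enzyme AARS and the serine enzyme SARS each rose 2.16-fold. Of 21 amino acid transporters 3 were higher and 1 lower. SLC6A9, which carries glycine, rose 3.98-fold. SLC1A4, which carries alanine and serine, rose 2.75-fold and the cystine carrier SLC7A11 3.03-fold. SLC1A3, a glutamate carrier, was the lower one at a mean under 50 (19.6, 23.7 and 14.3 with ezetimibe, 51.9, 58.9 and 54.5 with DMSO).

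Secreted factors known to rise under stress were listed in 5 of 12 cases, all higher, beside 2.7% of all genes behind the listing. ADM2, a peptide of the calcitonin family (chromosome 22, 50481556 to 50486440), had 1374, 1488 and 1517 with ezetimibe, against 297, 370.3 and 242 with DMSO (log2 2.29 ± 0.13, adjusted p = 1.31e-08). INHBE, an inhibin beta subunit made mainly in liver, rose 6.20-fold (292, 319.8 and 325 with ezetimibe, 65.6, 47.9 and 37.4 with DMSO). GDF15, a hormone that lowers food intake, rose 3.63-fold, VEGFA, which drives vessel growth, 2.25-fold, and the glycoprotein STC2 4.73-fold.

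Promoters are shown because an amino acid response element in the ASNS promoter is a known site of ATF4. The letters TGATGNAA, searched on both strands, were in 4 of 19 promoters of the higher ATF4-linked genes (21.1%), beside 4.20% of all higher genes, 6.76% of lower genes and 3.67% of all promoters. The whole ASNS window (chr7:97872359-97872658, minus strand) is followed by 50 bases around the match in AARS (chr16:70289665-70289714, minus strand), ATF3 (chr1:212565195-212565244, plus strand) and CHAC1 (chr15:40953241-40953290, plus strand). The match in ASNS starts 68 bases before the start site. In AARS and CHAC1 it lies on the other strand.
ASNS: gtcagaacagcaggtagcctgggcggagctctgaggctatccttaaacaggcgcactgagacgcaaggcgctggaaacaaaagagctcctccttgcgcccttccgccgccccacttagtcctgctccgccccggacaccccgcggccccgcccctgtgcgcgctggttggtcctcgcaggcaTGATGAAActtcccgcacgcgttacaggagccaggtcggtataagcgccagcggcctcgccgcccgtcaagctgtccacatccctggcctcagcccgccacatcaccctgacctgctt
AARS: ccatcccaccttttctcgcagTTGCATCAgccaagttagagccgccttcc
ATF3: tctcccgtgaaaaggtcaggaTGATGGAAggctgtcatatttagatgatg
CHAC1: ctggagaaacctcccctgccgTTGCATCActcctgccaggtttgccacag
The remaining 15 promoters had no match in these 300 bases, which says nothing about sites elsewhere.

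**Figure D2:**
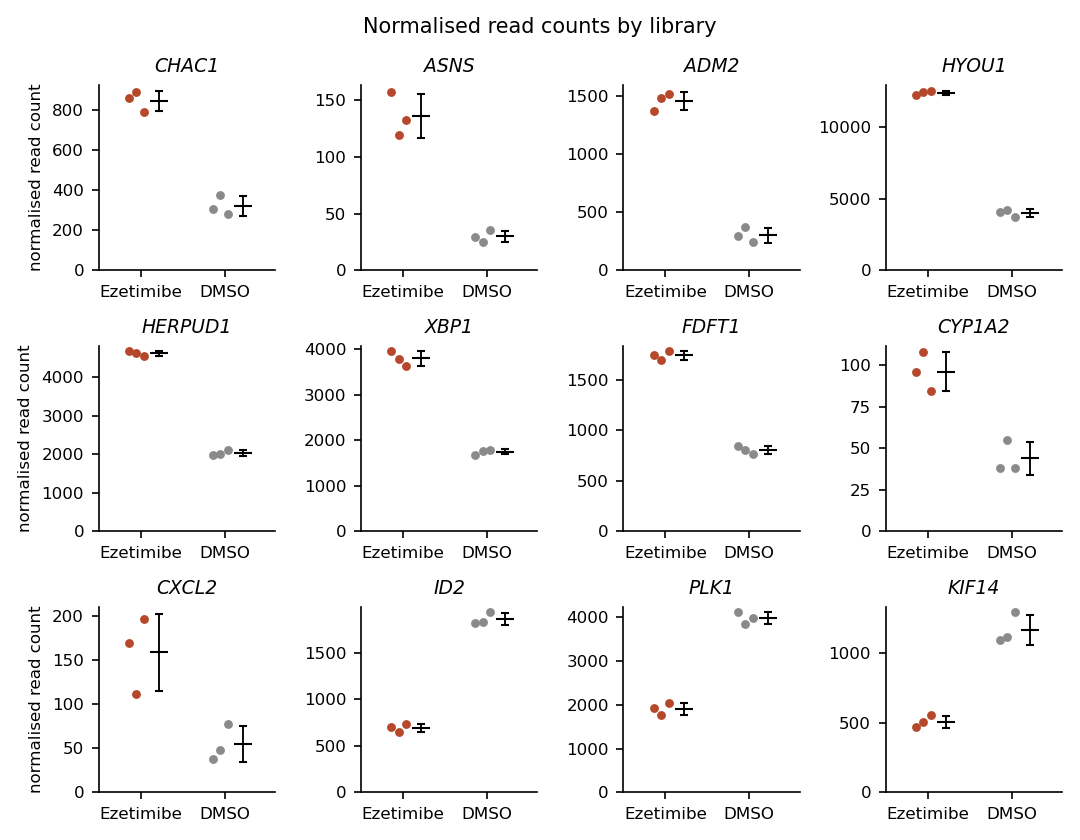
Normalised read counts of 12 listed genes in each of the 3 ezetimibe and 3 DMSO libraries (points), with the mean and SD beside them, on linear axes from 0. In all 12 genes, as in 98.3% of the 472 listed genes, the groups do not overlap. CXCL2 has the widest spread for its level, from 111 to 197 with ezetimibe and from 38.2 to 78.0 with DMSO.

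The steepest rises of better expressed coding genes included some outside the lists. CLGN, calmegin, an ER chaperone best known from testis, had 137, 124 and 159.6 with ezetimibe, against 15.7, 11.1 and 13.9 with DMSO, a rise of 10.4-fold. HID1, which acts in the sorting of secretory granules, rose 7.15-fold (654, 636 and 581 with ezetimibe, 95.0, 93.0 and 73.7 with DMSO). UNC5B, a netrin receptor, rose 6.57-fold. KLHDC7B, a kelch protein, had the largest log2 difference of all listed genes (5.92), at 632, 630.4 and 556 with ezetimibe and 8.82, 18.4 and 4.27 with DMSO. The 5 genes with the most reads, a count that also depends on gene length, were HSPA5, HYOU1, LONP1, AARS and TOP2A. LONP1, a protease of the mitochondrial matrix, rose 2.16-fold (10439, 10526 and 10436 with ezetimibe, 5063, 5559.6 and 3937 with DMSO). Per kilobase EIF4EBP1, a brake on cap-dependent translation, came next to HSPA5, at 4266 with ezetimibe and 1854 with DMSO, and it rose 2.30-fold.

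Sterol genes were higher in all cases listed. Of 21 sterol synthesis enzymes 4 were listed and of 22 genes of sensing, uptake and transport 5, beside 2.7% of all genes behind the listing. The enzymes lay within a narrow range of log2 differences, from 1.11 to 1.18. FDFT1, which makes squalene, had 1745, 1694 and 1787 with ezetimibe, against 844, 802 and 765 with DMSO. CYP51A1 and MSMO1, which remove methyl groups from lanosterol, rose 2.14-fold and 2.18-fold, and DHCR7, which acts last, 2.26-fold. SREBF2, the gene of SREBP2, rose 2.19-fold (4252, 4318 and 4381 with ezetimibe, 1993, 2151 and 1768 with DMSO). INSIG1, which retains SREBP in the ER, rose 2.48-fold and the sterol carrier STARD4 2.54-fold.

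NPC1L1, the target of ezetimibe, was itself among the higher genes at a low level. It had 36.1, 34.0 and 42.8 with ezetimibe and 10.8, 6.45 and 20.3 with DMSO, which is 7.16 normalised reads per kilobase with ezetimibe and 2.38 with DMSO. The sterol response element, named SRE, was in 1 of 7 promoters of the listed sterol genes, that of SREBF2, and in 0.154% of all promoters. It is shown with its surroundings (chr22:41832951-41833000, plus strand), the match in capitals starting 134 bases before the start site.
SREBF2: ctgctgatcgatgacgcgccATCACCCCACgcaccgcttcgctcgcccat
Of 19 genes of fatty acid synthesis and glycerolipids PNPLA3, a lipid droplet enzyme, was listed (2.03-fold). Both this count and the next lie near the 2.7% of all genes behind the listing. Of 25 genes of PPARα targets and fatty acid oxidation only PLIN5 was listed, at a mean under 50. Its neighbour PLIN4, a lipid droplet coat protein whose gene lies 4066 bases away, had 209, 159.9 and 156 with ezetimibe and 58.8, 90.3 and 60.9 with DMSO.

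**Figure D3:**
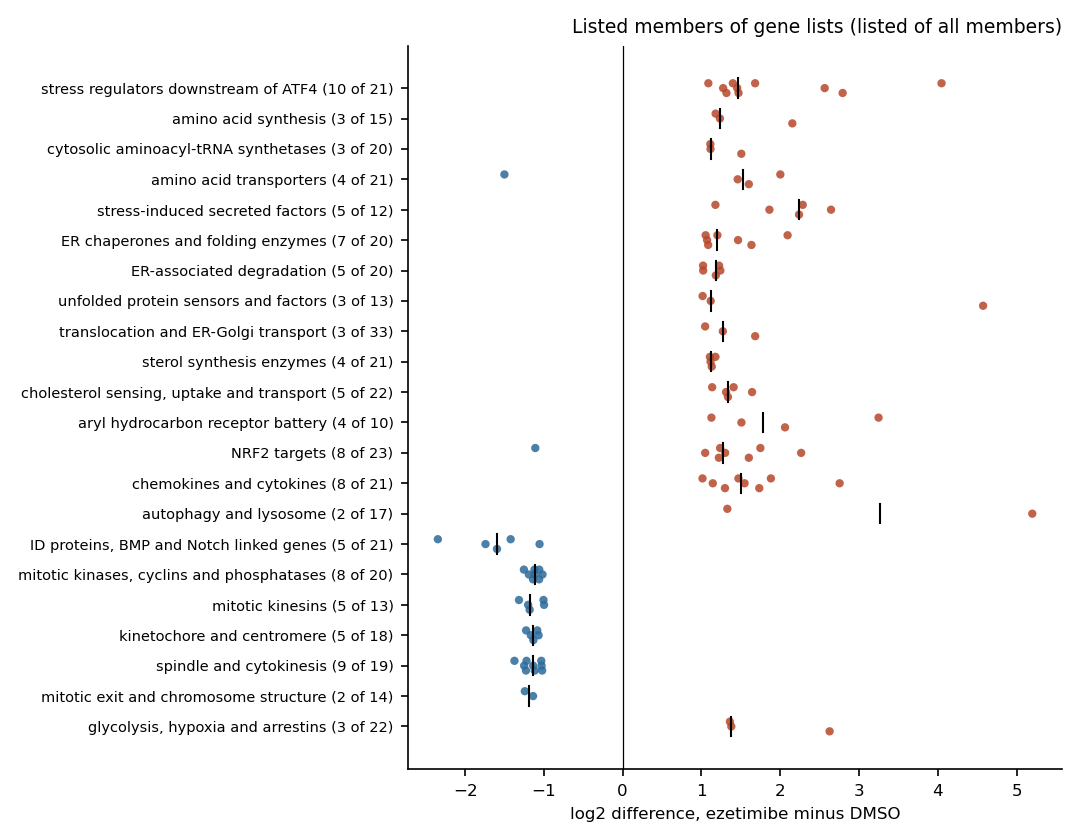
Log2 differences, ezetimibe minus DMSO, of the listed members (points) of the 22 gene lists with more than 1 listed member, with the number listed of all members in brackets and the median as a black line. Except for SLC1A3 among transporters and AKR1C3 among NRF2 targets, each list lies wholly above or wholly below 0, and the mitosis lists stay between -1.37 and -1.00.

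Genes known to be induced through the aryl hydrocarbon receptor, a sensor of planar aromatic compounds, were higher in 4 of 10 cases. That count stands beside 2.7% of all genes behind the listing. CYP1A1, a cytochrome that oxidises such compounds (chromosome 15, 74719542 to 74725610), had 1398, 1461 and 1376 with ezetimibe, against 149.9, 146 and 147 with DMSO (log2 3.25 ± 0.09, adjusted p = 2.77e-11). AHRR, the repressor of the receptor, had 429, 482 and 514 with ezetimibe and 128, 124 and 89.8 with DMSO, a rise of 4.16-fold. TIPARP, which also curbs the receptor, rose 2.86-fold. CYP1A2, the neighbour of CYP1A1, rose 2.19-fold at a low level. The xenobiotic response element, letters TNGCGTG on either strand, was in 1 of the 4 promoters, that of AHRR, and in 5.51% of all promoters.

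Of 23 NRF2 targets, which protect against oxidants, 7 were higher and 1 lower, beside 2.7% and 0.772% of all genes behind the listing. ABCC3, an exporter of conjugated compounds, rose 3.39-fold (162, 140.3 and 132 with ezetimibe, 45.1, 48.8 and 34.2 with DMSO). SRXN1, which repairs peroxiredoxins, rose 2.24-fold, with DMSO libraries that differed among themselves (426, 522 and 258). The aldo-keto reductases AKR1C1 (2.46-fold) and AKR1C2 (2.36-fold) were higher, while AKR1C3 on the same stretch of chromosome 10 was lower at a mean under 50 (24.7, 18.6 and 20.9 with ezetimibe, 48.0, 46.1 and 47.0 with DMSO). These genes are close copies, and reads shared between them could have been split by the counting.

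Chemokines and cytokines were listed in 8 of 21 cases, all higher, beside 2.7% of all genes behind the listing. Of these 8, 5 had a mean of at least 50. CXCL2, which attracts neutrophils (chromosome 4, 74097035 to 74099293), had 169, 111 and 197 with ezetimibe, against 38.2, 47.9 and 78.0 with DMSO (log2 1.55 ± 0.27, adjusted p = 1.68e-04). Its libraries spread widely but did not overlap. CCL20, which attracts dendritic and T helper cells, rose 3.38-fold with a tighter spread (155, 144 and 136 with ezetimibe, 43.1, 46.1 and 39.5 with DMSO). CXCL8, per kilobase the highest of them at 538 with ezetimibe and 146 with DMSO, rose 3.68-fold, CXCL1 2.46-fold and CXCL5 2.04-fold. CXCL3, IL1A and IL6 had means under 50. CXCL1, CXCL2 and CXCL3 are similar in sequence, so reads may be split between them. Of 12 feedback genes of NF-κB TRAF1 alone was listed, at a mean under 50.

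Of 22 genes of glycolysis, hypoxia and arrestins 3 were higher, beside 2.7% of all genes behind the listing. EPAS1, the hypoxia factor HIF-2α, had 219.6, 206 and 179.6 with ezetimibe and 14.7, 48.8 and 43.8 with DMSO, with 1 DMSO library well below the other two. LOX, which cross-links collagen, rose 2.55-fold, and PFKFB4, which sets the level of a glycolysis activator, 2.56-fold. Of 17 autophagy and lysosome genes WIPI1, which acts in autophagosome formation, rose 2.51-fold. The lysosomal protein LAMP3 stood at 137, 189.8 and 138 with ezetimibe and at 3.92, 1.84 and 4.27 with DMSO, so its rise of 46.3-fold starts from a few reads. Its log2 difference was 5.20 with a pseudocount of 1 and 4.26 with a pseudocount of 5. Of 22 genes of growth arrest and cell death HRK alone was listed, at a mean under 50. No member was listed among 23 immediate early genes, 25 genes of DNA replication and the G1/S transition, 13 cytosolic and mitochondrial heat shock genes, 10 Hippo targets and 13 subunits encoded by the mitochondrial genome. With 3.47% of all genes behind the listing listed, lists of these sizes may hold none. A gene that is not listed may have changed by less than the threshold or been too low to test.

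The inhibitors of helix-loop-helix factors were lower with ezetimibe, and ID3 had the largest fall of all listed genes by log2 difference. By the authors' log2 fold change SMIM11A, whose libraries overlapped between the groups, fell further (-2.87, against -2.35 for ID3). ID proteins bind basic helix-loop-helix factors and keep them from DNA, and they are known targets of BMP signalling. All 4 of them were lower. ID3 (ENSG00000117318, chromosome 1, 23557918 to 23559794) had 648, 592 and 628 normalised reads with ezetimibe, against 3184, 3557 and 2803 with DMSO, a log2 difference of -2.35 ± 0.09 (adjusted p = 5.54e-10). ID1 had 1169, 1141 and 1104 with ezetimibe and 3499, 3617 and 3216 with DMSO (log2 -1.60 ± 0.07). ID2 had 699, 651 and 735 with ezetimibe, against 1823, 1830.2 and 1934 with DMSO (log2 -1.42 ± 0.08), and ID4 2053, 2072 and 2012 with ezetimibe, against 4041, 4758 and 3995 with DMSO (log2 -1.05 ± 0.07). In each of the 4 genes, as in 104 of the 105 listed lower genes, every ezetimibe library lay below every DMSO library. The order of change was ID3, ID1, ID2 and ID4. The list of ID, BMP and Notch genes had 5 of 21 members listed, all lower, beside 0.772% of all genes behind the listing. The remaining one was ATOH8, a basic helix-loop-helix factor at a mean under 50.

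The table marks 27 listed genes as transcription factors, 15 higher and 12 lower, beside 367 higher and 105 lower among all 472 listed genes. How many factors stood behind the listing is not known. Of the 9 in the basic helix-loop-helix family 6 were lower, the ID genes with ATOH8 and HEYL, a Notch effector (10.3, 12.4 and 18.1 with ezetimibe, 56.8, 35.0 and 43.8 with DMSO). The others of the family, BHLHA15, SREBF2 and MXD1, a repressor that competes with MYC for its partner, were higher, MXD1 by 2.36-fold. All 4 bZIP factors (ATF3, DDIT3, NFIL3 and XBP1) and both C/EBP factors were higher. With 77.5% of the listed genes called higher, groups this small may hold higher genes only. CEBPB, which works with ATF4, had 2066, 2216 and 2313 with ezetimibe, against 1038, 1029.8 and 1031 with DMSO. NFIL3, a repressor in the clock and in immune cells, rose 2.38-fold. RUNX1, a factor of blood and breast epithelium, rose 2.27-fold and KLF15, a metabolic factor, 2.78-fold. Lower factors were the forkhead genes FOXJ1 and FOXS1, the homeobox genes HMX2 and LHX9, the ETS factor ETV1 and the zinc finger factor ZNF488. ETV1 had 124, 142 and 211 with ezetimibe and 412, 332 and 514 with DMSO (log2 -1.41 ± 0.20). ZNF488 was tighter, at 200.0, 199 and 173 with ezetimibe and 508, 533 and 530.1 with DMSO (log2 -1.46 ± 0.11).

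Other genes with large falls belonged to no list. SAMD11, known from photoreceptors, had 105, 103 and 87.4 with ezetimibe, against 348, 434 and 259 with DMSO (log2 -1.78 ± 0.18). LIX1 had 417, 409.6 and 429 with ezetimibe and 1279, 1283 and 1569.9 with DMSO (log2 -1.71 ± 0.10). CALB1, a calcium buffer, fell by 1.70 on the log2 scale and TMSB15A, an actin-binding thymosin, by 1.59. PCDH17, a protocadherin of cell contacts, fell by 1.56 and NEURL1B, a ubiquitin ligase of Notch ligands, by 1.52. AQP1, a water channel, had 38.2, 58.8 and 36.1 with ezetimibe, against 179, 164 and 191 with DMSO. In all of these, as in 104 of the 105 listed lower genes, the groups did not overlap.

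Genes of mitosis were lower with ezetimibe wherever they were listed. Across 5 lists 29 of 84 members were listed, all lower, beside 0.772% of all genes behind the listing, and their log2 differences ran only from -1.37 to -1.00, with a median of -1.14 beside -1.19 for all lower genes. By role these were 8 of 20 kinases, cyclins and phosphatases, 5 of 13 kinesins, 5 of 18 kinetochore and centromere genes, 9 of 19 spindle and cytokinesis genes, and 2 of 14 genes of mitotic exit and chromosome structure. Each of the 29 had a mean of at least 50. Of the DNA replication and G1/S list 0 of 25 members were listed. With 3.47% of all genes behind the listing listed, a list of 25 may hold none. Changes under the threshold are not seen, so no contrast with the mitosis lists is drawn.

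PLK1, the kinase that runs entry into and exit from mitosis (ENSG00000166851, chromosome 16, 23677656 to 23690367), had 1932, 1766 and 2039 with ezetimibe, against 4123, 3838 and 3979 with DMSO (log2 -1.06 ± 0.07, adjusted p = 3.43e-08). AURKA, the kinase of spindle poles, had 1063, 1066 and 1078 with ezetimibe and 2584, 2464 and 2607 with DMSO (log2 -1.25 ± 0.07). The checkpoint kinase BUB1 fell by 1.14, NEK2, which separates centrosomes, by 1.19 and the checkpoint kinase TTK by 1.06. CCNF, a cyclin that acts in a ubiquitin ligase, fell by 1.12 and CDC25C, the phosphatase that switches on CDK1, by 1.12. Per kilobase CDC25C was the lowest of the group, at 30.4 with ezetimibe and 65.3 with DMSO, and its normalised reads were 129, 90.8 and 84.6 in the ezetimibe libraries, against 221, 202 and 231 in the DMSO libraries.

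Among kinesins CENPE, which carries chromosomes to the spindle equator, had 578, 506 and 559.6 with ezetimibe, against 1322, 1196 and 1603 with DMSO (log2 -1.32 ± 0.11). KIF14 and KIF20B, which act in cytokinesis, fell by 1.20 and 1.18. KIF11, which pushes spindle poles apart, and KIF18A, which trims microtubules at kinetochores, lay at the listing threshold, both at -1.00. At the kinetochore NDC80, which holds microtubules, had 517, 509.7 and 488 with ezetimibe, against 1174, 1069 and 1315 with DMSO (log2 -1.23 ± 0.09). SGO2, a protector of cohesion, fell by 1.17, SPC25, a partner of NDC80, by 1.13, CENPA, the histone of centromeres, by 1.08 and CDCA8, a subunit of the Aurora B complex, by 1.07. Among spindle genes DLGAP5 had the largest fall, at -1.37. FAM83D and PSRC1, spindle-associated proteins, fell by 1.25 and 1.22 and NUSAP1, which bundles microtubules, by 1.23. CKAP2L fell by 1.14 and DEPDC1 by 1.12. NCAPG, a condensin subunit, had 1257, 1264 and 1261 with ezetimibe, against 2747, 2480.5 and 3132 with DMSO (log2 -1.14 ± 0.08), and TOP2A, which untangles chromosomes, fell by 1.24. In each of these genes, as in 104 of the 105 listed lower genes, the ezetimibe libraries lay below the DMSO libraries.

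Promoters of mitotic genes are shown because the letters TTTGAA are the known core of the cell cycle genes homology region. Searched on both strands, they were in 17 of 23 promoters of the lower mitotic genes (73.9%), in 32 of 74 promoters of all lower genes (43.2%), in 12 of 262 promoters of higher genes (4.58%) and in 15.4% of all promoters. Outside the mitosis lists 15 of 51 lower genes held them (29.4%), among them PIF1, a helicase, ERCC6L, which resolves DNA threads in mitosis, and PRR11. CCAAT, also within some other motifs, was in 19 of the 23 (82.6%) and in 35.7% of all promoters, and both together were in 15 of 23 (65.2%), beside 6.08% of all promoters and 1.91% of higher genes. The median GC content was 62.0% in these 23, 66.0% in the higher genes and 58.3% in all promoters, and the part of base composition was not tested. Mitotic genes that were not listed were not counted apart, so whether they hold TTTGAA as often was not tested. The whole PLK1 window (chr16:23678639-23678938, plus strand) has both motifs in capitals, CCAAT starting 73 and TTTGAA 29 bases before the start site. It is followed by 50 bases around TTTGAA, or around its reverse complement TTCAAA in TOP2A, KIF14 and NDC80, in TOP2A (chr17:40418020-40418069, minus strand), DLGAP5 (chr14:55191555-55191604, minus strand), KIF14 (chr1:200620723-200620772, minus strand), CENPA (chr2:26786016-26786065, plus strand), CCNF (chr16:2429340-2429389, plus strand) and NDC80 (chr18:2571532-2571581, plus strand).
PLK1: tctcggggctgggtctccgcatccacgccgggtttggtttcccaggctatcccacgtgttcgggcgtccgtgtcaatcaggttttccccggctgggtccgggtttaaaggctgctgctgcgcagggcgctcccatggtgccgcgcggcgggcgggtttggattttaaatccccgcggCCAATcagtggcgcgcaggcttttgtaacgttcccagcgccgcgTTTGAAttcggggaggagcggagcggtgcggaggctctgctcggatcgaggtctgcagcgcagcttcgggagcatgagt
TOP2A: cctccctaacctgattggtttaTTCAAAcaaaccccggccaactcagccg
DLGAP5: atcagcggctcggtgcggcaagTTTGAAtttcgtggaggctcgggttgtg
KIF14: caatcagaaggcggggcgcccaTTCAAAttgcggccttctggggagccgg
CENPA: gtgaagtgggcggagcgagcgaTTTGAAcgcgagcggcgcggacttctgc
CCNF: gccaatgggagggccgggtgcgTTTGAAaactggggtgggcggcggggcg
NDC80: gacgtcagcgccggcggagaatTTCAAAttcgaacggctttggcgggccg
The match lay within 30 bases of the start site in PLK1, DLGAP5, KIF14, CENPA and NDC80, and farther away in CCNF and TOP2A. RefSeq places the start site of PLK1 inside the gene as the table gives it.

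Of the other motifs, searched on both strands, the unfolded protein response element (TGACGTGG) was in 1.91% of higher and 0.795% of all promoters and in 0 of 74 lower ones. The cyclic AMP response element (TGACGTCA) was in 2.29% of higher, 6.76% of lower and 1.98% of all promoters. The E-box (CACGTG) was in 10.7% of higher, 5.41% of lower and 7.43% of all promoters, and the AP-1 site (TGANTCA) in 8.40% of higher, 9.46% of lower and 7.76% of all. The BMP response GC box (GGCGCC) was in 30.5% of higher, 27.0% of lower and 18.97% of all promoters.

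**Figure D4:**
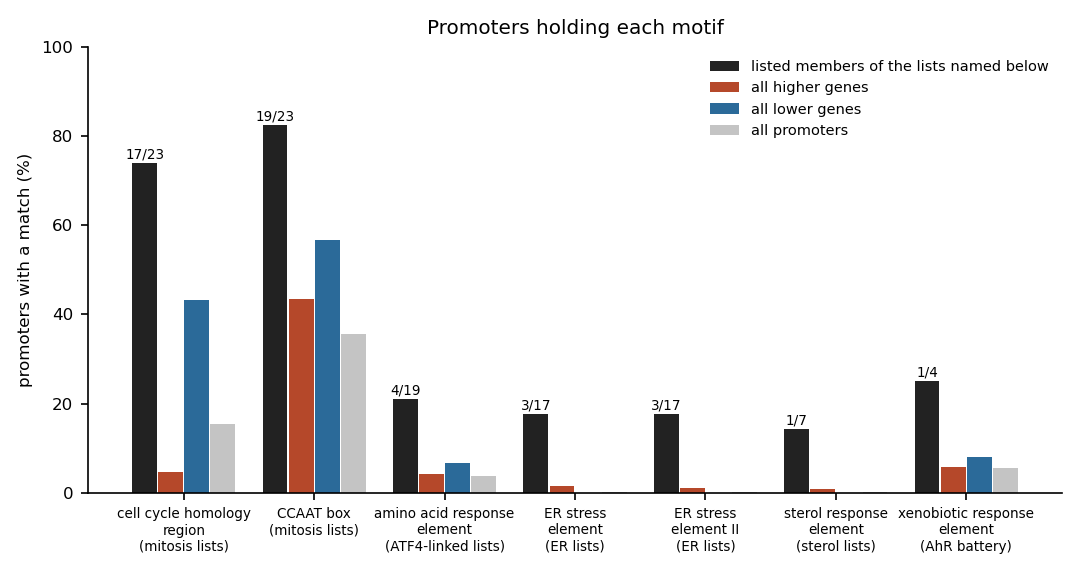
Share of 300-base promoters with at least 1 match to each motif on either strand, for the listed members of the lists named under the axis (black, with counts), all 262 higher genes, all 74 lower genes and all 27305 promoters. The cell cycle homology region (TTTGAA) is in 73.9% of the lower mitotic genes and 4.58% of the higher genes, and each ER stress element is in 3 of 17 listed ER genes and under 0.1% of all promoters.

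Of the 472 listed genes 98 had a listed neighbour within 100000 bases. They formed 64 pairs, and 56 pairs (87.5%) changed in the same direction, beside 65.3% of all possible pairs of listed genes. On chromosome 12 INHBE, ARHGAP9 and DDIT3 were all higher. ARHGAP9, a GTPase-activating protein of blood cells, had 42.3, 42.3 and 48.5 with ezetimibe, against 5.88, 4.61 and 6.41 with DMSO. On chromosome 22 ADM2, TYMP, which breaks down thymidine, and KLHDC7B were higher. On chromosome 6 the neighbours ULBP1 and ULBP2, ligands of an activating receptor of natural killer cells, rose 2.71-fold and 3.01-fold. On chromosome 17 SLFN5 and SLFN11, Schlafen proteins that interferon induces, rose 3.57-fold and 2.39-fold. The metallothioneins MT1G and MT1M, which bind zinc, rose 2.55-fold and 2.01-fold. Of the 64 pairs 13 overlapped, 9 of them on opposite strands. The labels name a SMARTER mRNA library kit but not whether the counting used the strand, so reads of such pairs may not be told apart. PRR11 and the antisense RNA AC099850.3 form such a pair, with log2 differences of -1.07 and -1.11, as do ID4 and AL022068.1.

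Genes that are not protein-coding numbered 74, 58 higher and 16 lower. MST1P2, a pseudogene of the hepatocyte growth factor-like gene MST1, had 242, 288 and 279 with ezetimibe, against 33.3, 68.2 and 36.3 with DMSO (5.87-fold). Its relative MST1L rose 10.4-fold, and MST1 itself was also listed as higher (log2 2.27). These are close copies whose reads may be shared, so their separate values are uncertain. NBR2, which shares a promoter region with BRCA1, rose 2.52-fold (139, 149 and 129 with ezetimibe, 57.8, 57.1 and 50.2 with DMSO). The antisense RNA AL365181.3 overlaps BCAN on the other strand and rose 2.56-fold, AL390719.1 rose 3.27-fold and AC080112.1 2.68-fold. The 5 largest falls at a mean of at least 50, by log2 difference, were those of AC005394.2 (-1.21), LINC02593 (-1.14), AC099850.3 (-1.11), AP001505.1 (-1.04) and ZDHHC8P1 (-1.02).

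The same genes can be read beside the other treatments, whose tables share the 3 DMSO libraries, so only each comparison's own log2 difference is given. The other treatments were fenofibrate, a fibrate that activates PPARα, and both drugs together. The ER genes HSPA5, HYOU1 and SYVN1 had 1.46, 1.63 and 1.24 with ezetimibe and 2.97, 2.58 and 2.66 with both drugs, and were not listed with fenofibrate. ASNS had 2.15 with ezetimibe, 1.41 with fenofibrate and 2.52 with both. INSIG1, DHCR7, FDFT1, MSMO1 and SREBF2 were listed with each single drug and not with both, INSIG1 at 1.31 with ezetimibe and 2.13 with fenofibrate. CYP1A1 had 3.25 with ezetimibe, 1.97 with fenofibrate and 4.15 with both, while AHRR and CYP1A2 were listed with ezetimibe alone. ID1 had -1.60 with ezetimibe and -3.21 with both, ID3 had -2.35 with ezetimibe and -2.61 with both, and ID4 was listed with ezetimibe alone. PLK1, AURKA, BUB1 and NEK2 were likewise listed with ezetimibe alone, while TOP2A had -1.24 with ezetimibe and -1.78 with both. Whether these values differ between treatments was not tested.

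**Figure D5:**
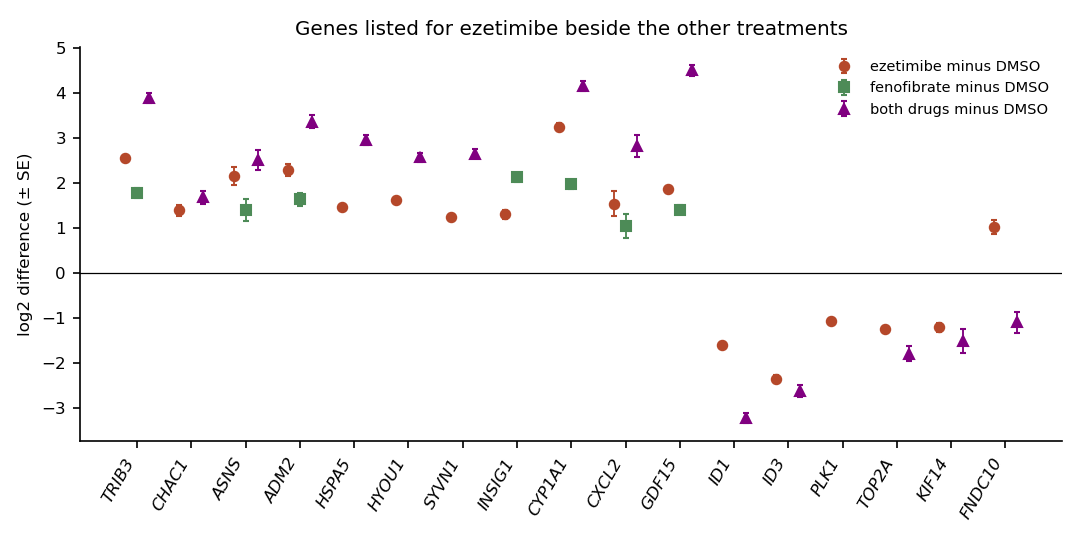
Log2 differences from DMSO (± SE from limma) of genes listed with ezetimibe, for ezetimibe, fenofibrate and both drugs, where a missing symbol means that the gene was not listed for that treatment. FNDC10 is the gene whose sign differs, at 1.03 with ezetimibe and -1.09 with both drugs.

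Markers of cell types could hardly be checked in a table of changed genes. Of 36 markers of luminal, basal, mesenchymal, endothelial, leukocyte and fibroblast cells 2 were listed, both at a mean under 50. Over all genes behind the listing the share was 3.47%. GATA3, a luminal factor, had 58.8, 49.5 and 51.3 with ezetimibe, against 15.7, 34.1 and 25.6 with DMSO. CDH5, an endothelial cadherin, had 13.4, 10.3 and 6.65 with ezetimibe and 19.6, 38.7 and 22.4 with DMSO, with a log2 difference of -1.31 ± 0.39. Without DMSO replicate 2 it was -1.03 and no longer called (adjusted p = 0.0559). The levels of the other 34 markers are not in the table, so the labelled cell type was not checked further.

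In 8 genes libraries of the groups overlapped. PWP2, a ribosome assembly factor, was the gene not called by limma (adjusted p = 0.0550), and 1 ezetimibe library stood far above the rest (161, 36.1 and 31.4 with ezetimibe, 31.4, 21.2 and 29.9 with DMSO). SMIM11A had 11.3, 14.4 and 14.3 with ezetimibe, against 145, 138 and 8.55 with DMSO, so 1 DMSO library lay with the ezetimibe libraries. Its log2 difference of -2.02 ± 0.80 became -3.32 without that library, DMSO replicate 3, and it was not called without DMSO replicate 1 (-1.35, adjusted p = 0.152) or 2 (-1.39, adjusted p = 0.115). The log2 difference of PWP2 was 1.04 ± 0.49, and it was 0.30 without ezetimibe replicate 1 (adjusted p = 0.324). By the log2 fold changes of the authors' deposited table, the higher genes nearest to the listing threshold were TCN2, which carries vitamin B12, PTPRH, a receptor phosphatase, and FAM53A, whose mean was under 50, each at 1.00. The nearest lower genes in the authors' deposited table were DEPDC1B, KIF11 and SNRPG, a spliceosome subunit, each at -1.00. Genes just outside the threshold are not analysed here.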

How the data were processed

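RNA was measured in 3 ezetimibe and 3 DMSO libraries of Cal51 cells. The tools featureCounts 1.5.0-p3 and HISAT2 2.0.5 and fastp and the build hg38 are credited to the submitters' processing notes. Which tool the authors compared the groups with is not given here. Per the file headers, the deposited table holds a signal for each library, with a p-value, a log2 fold change, the gene position and its length. The deposited signal was found to be reads multiplied by one factor per library, set by the authors (0.921 to 1.07). Dividing the signal by this factor gave whole reads, within 0.001, for 100% of values. The authors computed the p-value of each gene and its log2 fold change before deposit. The number of genes behind them, 13596, was inferred from the ranks of 147 p-values, of which 88.4% gave whole ranks within 0.02. Other deposited columns, such as gene descriptions, are text.

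Limma 3.58.1 (with trend, R 4.3.3) was fitted to log2 of the value plus 1, 2-sided, with Benjamini-Hochberg adjustment over the 472 genes and a threshold of 0.05. It was tested on simulated reads, with known changes in some genes and the same dispersion in all, checked at DMSO means of at least 50 only. That test covers neither low genes nor the authors' picking of genes. The fit sees listed genes only. The added 1 draws the log2 differences of low genes towards 0. Folds are ratios of mean values, and log2 differences carry SEs from limma. No permutation test was run, since 3 libraries a group allow no exact 2-sided p below 0.1. Replicate numbers were not taken to pair the libraries, and the labels do not say whether they mark pairs.

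The members and the 39 gene lists were chosen with earlier results of these data known. Genes named are the 10 largest rises and falls at a mean of at least 50, up to 6 members of each list, the 5 highest genes, the 5 largest changes of genes that are not protein-coding in each direction, the 3 nearest the threshold in each direction, and NPC1L1. The others, such as CHAC1, SESN2, PLK1, EIF4EBP1, the transcription factors, members at a mean under 50, neighbours and genes with printed promoters, were chosen after their values were seen. Of 472 positions 471 equal those of GENCODE 29. Promoters came from RefSeq (GRCh38.p14), and 12 motifs were searched. Protein sequences were not analysed here. The result of 1 gene is not reported here.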

Additional observations from a re-analysis of the deposited data

Results flagged for a closer look

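FNDC10 differed in sign between 2 treatments set against the same DMSO libraries. It had 378, 422 and 352 normalised reads with ezetimibe, against 218, 204 and 149 with DMSO, a log2 difference of 1.03. With both drugs together its log2 difference from DMSO was -1.09. Neither group of treated libraries overlapped the DMSO libraries, and the difference between the treatments was not tested.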

How the results depend on the processing

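Under 13 other settings each of the 124 genes named by rule kept its direction and call (1610 of 1610 values), FAM53A and NPC1L1 having none at a minimum mean of 50. A minimum mean of 50 left 295 called genes of 296, 216 of them higher and 79 lower, because fewer genes were tested. The other settings called 465 to 472 genes. Leaving out 1 library at a time gave 465 to 472 called genes, 361 to 367 of them higher and 103 to 105 lower. A fit with the replicate number as a block called 472 genes (367 higher, 105 lower), and deviations of libraries with the same number correlated at 0.00986, -0.0278 and 0.0894, so the numbers were not taken as pairs. A robust variance fit, added after the data were seen, called 470. Of 390 list counts 383 stayed within 1.5 times, and 7 moved, 6 of them at a minimum mean of 50. The call of CDH5 was lost without DMSO replicate 2, and calls of other genes were also lost under some settings. SMIM11A was not called by limma without the trend (adjusted p = 0.104). It was also not called with the robust fit (adjusted p = 0.125) or without ezetimibe replicate 1 (adjusted p = 0.0952). Planned count models on whole reads were not run. Depth limits the 176 genes with a mean under 50, whose log2 values had a median SD of 0.259 with ezetimibe and 0.432 with DMSO.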
